A study of Bos taurus with 20 samples.

Results

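The secreted signals that pattern a developing muscle, and the receptors that read them, were followed in bovine longissimus dorsi (LD), a large back muscle, from the embryo to the finished animal. The members are the array rows whose symbol in the platform annotation is WNT, FZD, SFRP, FGF, FGFR, BMP, GDF, TGFB, NOTCH, DLL or JAG with a number, or begins with BMPR, TGFBR, EFNA, EFNB, EPHA or EPHB. The row with the highest mean over the 20 columns stood for a gene with several. This gave 96 genes out of 11329 with a symbol, or 108 array rows out of 21475. No measured change enters this rule, but it was set with earlier results of these data known. The 96 were 14 WNT ligands, 8 FZD, 4 SFRP, 17 FGF, 4 FGFR, 8 BMP, 8 GDF, 3 BMPR, 8 TGFB and TGFBR, 3 NOTCH, 4 DLL and JAG, 4 EFNA, 2 EFNB, 6 EPHA and 3 EPHB symbols. The rule also caught 4 genes that belong to none of these families of ligands and receptors. They are the kinase gene BMP2K, the focal adhesion gene TGFB1I1, the vesicle transport gene TGFBRAP1 and FGFR1OP2, a gene named for a fusion partner of FGFR1. They are counted with the members, and without them 92 remain. These 92 still hold FGF12 and FGF13, which are of the FGF family but are not secreted.

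Muscle came from cattle with a Piedmontese or a Wagyu parent, in both cases crossed to Hereford, and total RNA was hybridised to two-colour arrays. Each cross was sampled at 60, 135, 195 and 280 days of gestation and at 3, 7, 12, 20, 25 and 30 months after birth. The deposited table has 1 column for each cross and age, 20 in all, which stands for 3 animals before birth and 4 after it. Heavy muscles and a myostatin gene that is not active mark the Piedmontese breed and marbling fat the Wagyu breed, while the Hereford parent is shared by both groups. Sex is not given, and the labels do not say whether animals were pooled before or after hybridisation. No cross and age has a replicate. Both crosses together gave the spread of an age (n = 2 columns). Each of the 36 arrays held both crosses at 1 age, so the 2 columns of an age share their arrays. What an array adds to both columns is not in this spread, so p-values of age differences can be too small. Each p-value of an age or cross difference sets it against how far the courses of the crosses departed from parallel. The tests used the 20 columns and no values of single arrays, so the number of columns limits the precision. The arrays lay on 9 slides, with the fetal ages on 3, the months from 3 to 20 on 4 and those from 25 to 30 on 2. No slide held samples of more than 1 of these spans. In any comparison between spans, such as across birth, from 20 to 25 or from 3 to 30 months, age and slide cannot be told apart.

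WNT ligands bind frizzled (FZD) receptors, and secreted frizzled-related proteins (SFRP) bind WNTs outside the cell. FGFs act through receptor tyrosine kinases (FGFR). BMPs, GDFs and TGF-betas act through pairs of serine and threonine kinase receptors. Delta-like (DLL) and jagged (JAG) ligands on one cell activate NOTCH receptors on its neighbour, and membrane-bound ephrins (EFN) meet EPH receptors in the same manner. In mouse and chick embryos WNT and BMP signals set where muscle precursors form, FGF and Notch signals keep them dividing and undifferentiated, and ephrins guide migrating precursors and motor axons. The roles named below are those known from such model animals or from human genetics.

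Values are on the log2 scale as deposited, and a change is a difference in log2 units with its standard error (SE). A change is said to have risen or fallen where its p-value from limma, adjusted by Benjamini-Hochberg over all 21475 rows, was under 0.05. Column medians ran from 5.88 to 7.36, so no common level had been set for the columns. Between 60 and 280 days the median row moved by −0.34 as deposited. It moved by 0.15 when the columns were quantile-normalised and by 0.89 when each was centred on its own median. Small prenatal changes can therefore change sign or pass on one scale and not on another. Of the 40 members that did not pass from 60 to 280 days as deposited, 18 passed as rises with quantile-normalised and 35 with centred columns, and none as falls. The sign had turned in 4 of these 18 and in 17 of these 35. Calls are on the deposited scale unless another is named. A level is set only against other levels of the same gene.

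Most of these genes read highest before birth. In bulk muscle fewer cells of a type and less RNA per cell cannot be told apart. Age passed in 82 of 96 members, against 87.4% of all rows, a share of members (85.4%) that is near that of the array. The range of the 10 age means ran from 0.45 to 10.35 with a median of 2.13, and it was over 4 in 16 members. The highest age mean fell at 60 days in 41 members (42.7%, against 33.4% of all rows) and at one of the fetal ages in 75 (78.1%, against 64.5%). From 60 to 280 days 48 members fell and 8 rose, where 42.4% of all rows fell and 18.6% rose. After quantile normalisation 36 members fell and 27 rose (30.6% and 37.0% of all rows), and with centred columns 33 fell and 46 rose (22.3% and 59.8%). Of the members that passed as deposited, 6 that fell and 1 that rose have a row in the lowest 25% of all row means (23 members do), where values carry little signal. The falls of 33 members and the rises of all 8 held on all 3 scales. The member median lay below the all-row median by 0.33, 0.32 and 0.33 on the scales as deposited, quantile-normalised and centred. All 56 members that passed changed in the same direction in both crosses, which passing all but requires, since the crosses give the spread. Of all 96 members 89 did.

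**Figure D1:**
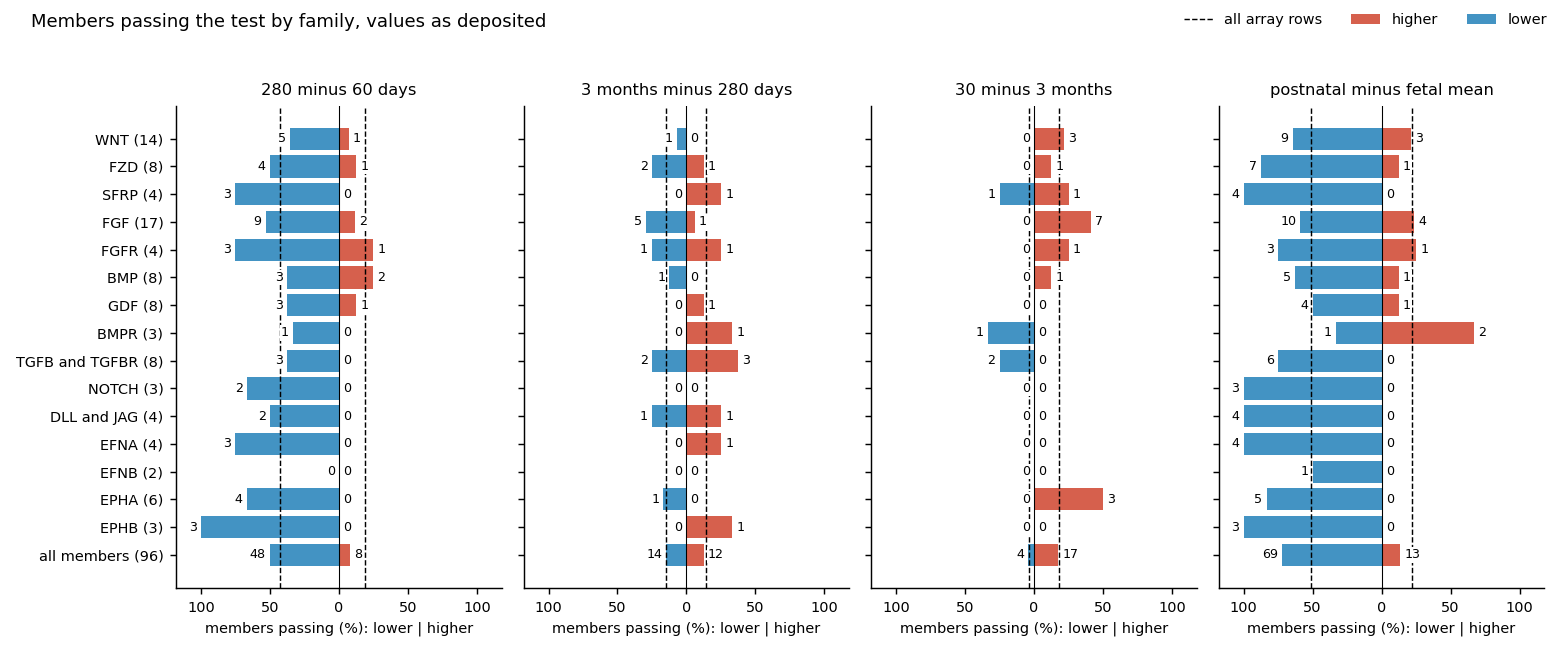
Share of each family's members that were lower (blue, to the left) or higher (red, to the right) in 4 comparisons on the deposited scale, with the number of members at the end of each bar and family sizes in brackets. Dashed lines mark the share of all array rows that were lower or higher, 42.4% and 18.6% for 280 minus 60 days. Among all members 48 were lower and 8 higher before birth, and 4 were lower and 17 higher from 3 to 30 months.

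SFRP1 and SFRP2 had the largest prenatal changes of all members. SFRP2, which encodes a secreted WNT-binding protein, read 4.96 in the Piedmontese and 7.44 in the Wagyu column at 280 days, against 16.48 and 16.64 at 60 days. It fell by 10.35 ± 0.44 (adjusted p = 3.56e-12). SFRP1, its close relative, read 6.84 and 7.74 at 280 days and 15.36 and 15.66 at 60 days in the Piedmontese and Wagyu columns, and fell by 8.22 ± 0.37 (adjusted p = 5.43e-12). SFRP4 read 6.94 and 8.25 at 280 days, against 14.74 and 14.46 at 60 days, and fell by 7.01 ± 0.44 (adjusted p = 3.66e-10). The columns of the 280-day muscle thus lay far below those of the 60-day muscle for all 3 genes in both crosses. SFRP5, which is known from adipose tissue, gave −0.88 ± 0.38 (adjusted p = 0.0564), with 8.83 and 9.19 at 280 days and 10.22 and 9.56 at 60 days, and 0.32 and 0.35 with quantile-normalised and centred columns, which did not pass either.

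The courses of the SFRP genes differed in timing. SFRP2 fell at each step, by 3.47 from 60 to 135 days, 1.58 from 135 to 195 days and 5.30 from 195 to 280 days. SFRP1 lost 6.04 of its 8.22 in the last step (adjusted p = 9.41e-10). SFRP4 did likewise, with 5.14 (adjusted p = 4.66e-08), and gave only −0.03 in the first step, which did not pass (adjusted p = 0.974). After birth they parted. SFRP4 read 9.69 and 9.76 at 3 months, against 6.94 and 8.25 at 280 days, and rose by 2.13 ± 0.44 (adjusted p = 0.0021). SFRP1 had 6.67 and 6.46 at 30 months and 8.32 and 8.18 at 3 months, and fell by 1.69 ± 0.37 (adjusted p = 0.00516). SFRP5 had 9.10 and 9.67 at 30 months and 8.28 and 8.09 at 3 months, and rose by 1.20 ± 0.38 (adjusted p = 0.0347). The changes of SFRP1 and SFRP5 from 3 to 30 months did not pass with every single column left out, while the rise of SFRP4 across birth did.

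**Figure D2:**
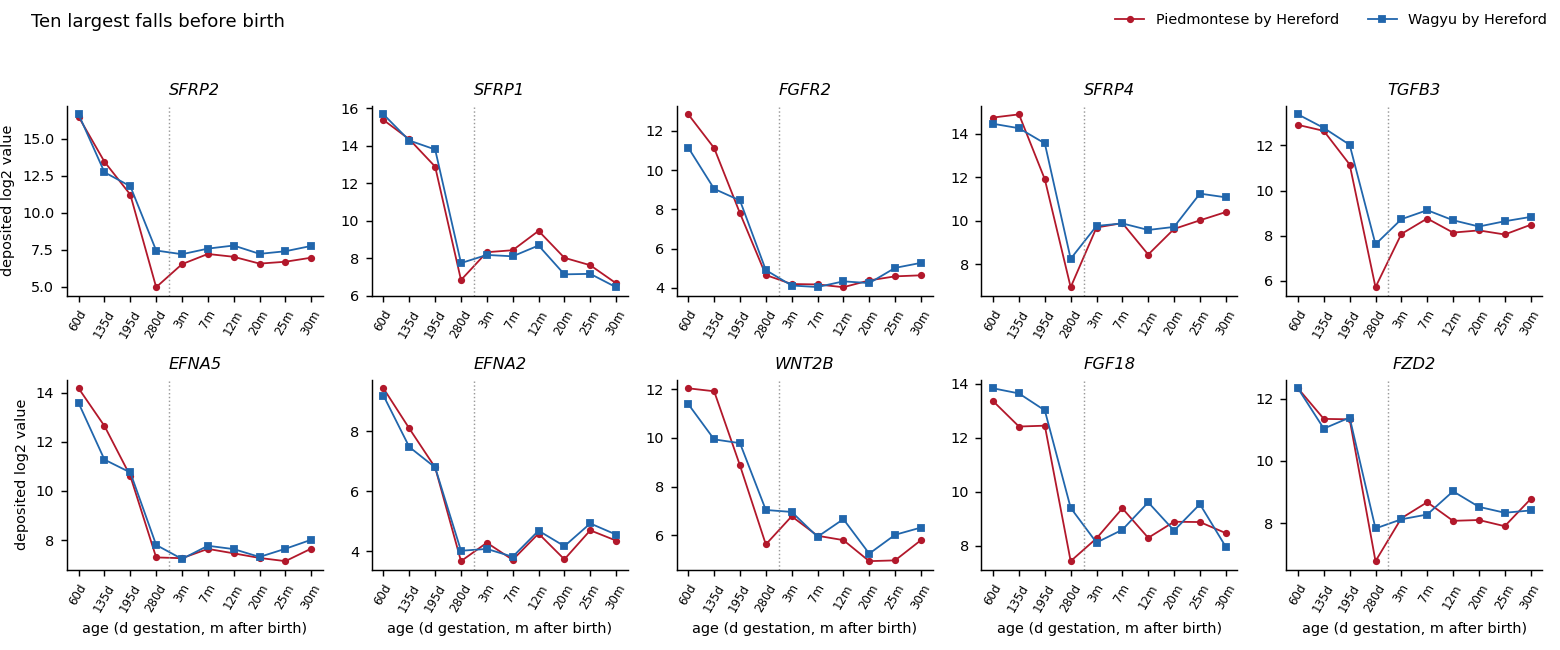
Deposited log2 value of the 10 members with the largest falls from 60 to 280 days of gestation, at 10 ages, in the Piedmontese by Hereford (red circles) and the Wagyu by Hereford cross (blue squares). Each point is 1 column, without error bars since there is 1 column per cross and age, and the dotted line marks birth. SFRP2 read 4.96 and 7.44 at 280 days in the Piedmontese and Wagyu columns, against 16.48 and 16.64 at 60 days, and SFRP4 and TGFB3 turned up again after birth.

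Among the WNT ligands 5 of 14 fell and 1 rose before birth on the deposited scale, 35.7% and 7.14%, against 42.4% and 18.6% of all rows. With quantile-normalised columns 3 fell and 3 rose (30.6% and 37.0% of all rows), and with centred columns 3 fell and 10 rose (22.3% and 59.8%), so the direction of the family as a group rests on the scale. The falls that held on every scale were those of WNT2B, WNT10B and WNT16. WNT2B, a ligand of the beta-catenin pathway, read 5.62 and 7.04 at 280 days in the Piedmontese and Wagyu columns, against 12.04 and 11.39 at 60 days, and fell by 5.38 ± 0.54 (adjusted p = 1.36e-07). The 280-day columns of the crosses differed by more than 1 unit, yet both lay below every earlier column. WNT10B, which in mice favours muscle over fat differentiation in muscle precursors, had 3.50 and 4.35 at 280 days and 6.29 and 6.68 at 60 days and fell by 2.56 ± 0.37 (adjusted p = 1.1e-05). Most of that came between 135 and 195 days, where the change was −2.36 (adjusted p = 0.00046). WNT16, a ligand tied to bone mass in human genetics, read 4.18 and 3.83 at 280 days, against 6.86 and 6.20 at 195 days, and fell by 2.53 ± 0.37 (adjusted p = 2.32e-05) in that step.

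WNT1 was the WNT ligand that rose. It is the founding member of the family and acts through beta-catenin. It read 4.94 and 5.10 at 280 days, against 3.97 and 3.93 at 60 days, and rose by 1.07 ± 0.23 (adjusted p = 0.000495), and its postnatal columns stayed between 4.80 and 5.31. WNT11, a ligand of the beta-catenin-independent branch, fell by 0.68 ± 0.25 (adjusted p = 0.0257) as deposited but gave 0.66 with quantile-normalised and 0.55 with centred columns. WNT5A, of the same branch, fell by 0.98 ± 0.25 (adjusted p = 0.00227) as deposited and gave −0.22 and 0.25 on those scales. The lower level of WNT11 after birth did not depend on the scale. Its postnatal columns had a lowest, median and highest value of 5.74, 6.48 and 7.22, against 7.25, 7.76 and 8.53 in the fetal columns, with no overlap. WNT9A and WNT9B rose by 0.61 and 0.62 from the fetal to the postnatal mean (adjusted p = 0.000191 and 0.00163), and these rises also held on all scales. The 6 other WNT ligands (WNT3, WNT3A, WNT5B, WNT8A, WNT8B and WNT10A) gave prenatal changes from −0.61 to −0.03, none of which passed on the deposited scale. With centred columns all 6 passed as rises, such as WNT3 with 0.72 (adjusted p = 0.00148) and WNT3A with 0.97 (adjusted p = 0.00469).

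Of the 8 frizzled receptors 4 fell before birth (FZD1, FZD2, FZD3 and FZD8) and 1 rose (FZD7), where 42.4% of all rows fell and 18.6% rose. FZD2 read 6.78 and 7.83 at 280 days and 12.33 and 12.33 at 60 days, and fell by 5.02 ± 0.32 (adjusted p = 4.67e-10), with 4.05 of this in the last step. FZD1 had 6.89 and 6.98 at 280 days, against 11.94 and 10.96 at 60 days, and fell by 4.52 ± 0.32 (adjusted p = 1.86e-09). FZD8 had 5.66 and 5.05 and 9.25 and 9.86 at those ages and fell by 4.20 ± 0.29 (adjusted p = 1.43e-09), and its second array row fell by 2.72. These 3 receptors showed their falls on every scale, whereas FZD3 gave −1.62 as deposited (adjusted p = 4.74e-06) and −0.40 with centred columns, where it did not pass.

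FZD7 ran the other way. In mice it is the receptor through which WNT7A acts on muscle stem cells. Its lowest, median and highest postnatal columns were 8.50, 8.91 and 9.54, against fetal columns of 6.49, 6.88 and 8.08, so that every postnatal column lay above every fetal one in both crosses. The postnatal mean was higher by 1.90 ± 0.13 (adjusted p = 2.91e-10). It rose by 0.93 ± 0.28 (adjusted p = 0.019) from 280 days to 3 months, which with the prenatal rise of 0.89 makes it the only member that rose in both comparisons as deposited. Neither call passed with every single column left out. The prenatal change was 0.41 (adjusted p = 0.215) without the Wagyu column at 280 days, and the change across birth was 0.45 (adjusted p = 0.244) without the Piedmontese column at that age. FZD10, by contrast, had no postnatal column above its fetal ones, with 5.45, 5.75 and 6.07 after birth and 6.16, 6.68 and 7.57 before it. Full separation of the stages was seen in 7 of 96 members, upward in FGF1, FGFR1OP2 and FZD7 (4.34% of all rows) and downward in JAG2, FZD10, TGFBR3 and WNT11 (5.6% of all rows), shares that are near those of the array.

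**Figure D3:**
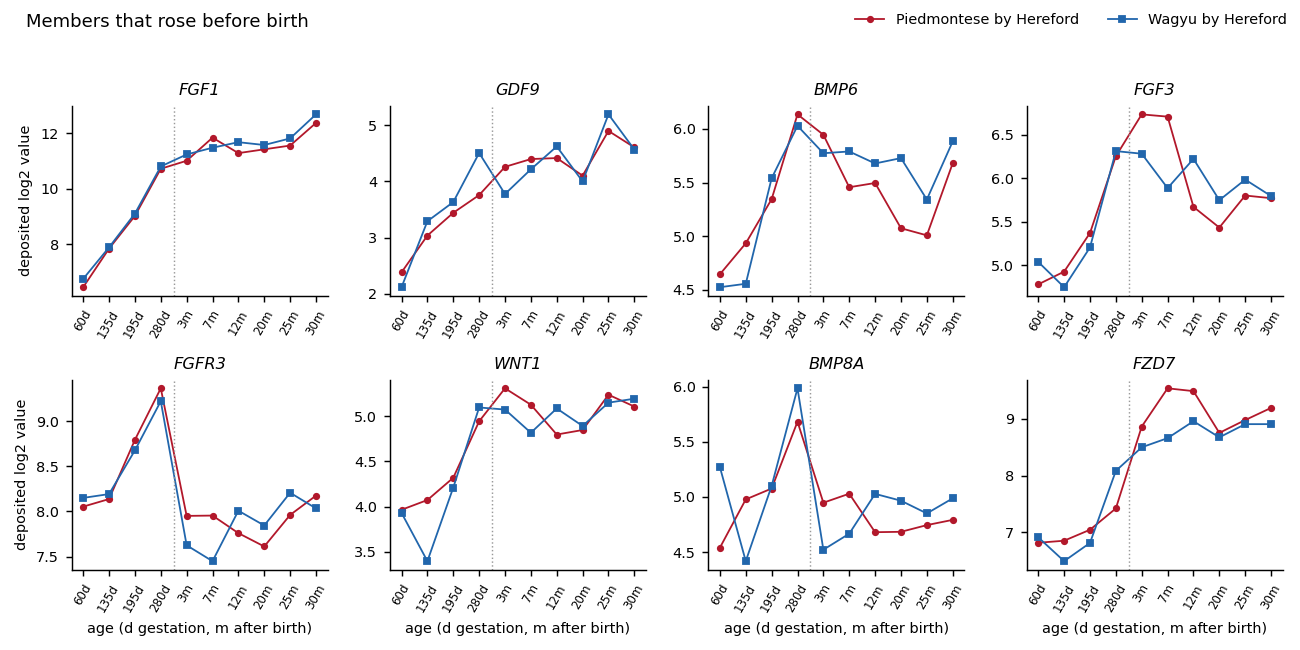
Deposited log2 value of the 8 members that rose from 60 to 280 days, at 10 ages, in the Piedmontese by Hereford (red circles) and the Wagyu by Hereford cross (blue squares), 1 column per point. FGF1 reached 12.36 and 12.67 at 30 months in the Piedmontese and Wagyu columns, and FGFR3 and BMP8A turned down at birth (dotted line).

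FGF1, the acidic fibroblast growth factor, binds all FGF receptors and rose further before birth than any other member. In the Piedmontese columns it read 6.44, 7.84, 9.01 and 10.71 at 60, 135, 195 and 280 days and in the Wagyu columns 6.74, 7.88, 9.10 and 10.80. The crosses differed by at most 0.30 at a fetal age, which is small beside the change with age. It rose by 4.16 ± 0.21 (adjusted p = 2.04e-11), passed at each of the 3 fetal steps and rose by a further 1.40 from 3 to 30 months (adjusted p = 0.000379), with 12.36 and 12.67 at 30 months against 11.00 and 11.23 at 3 months. The step from 25 to 30 months gave 0.84 (adjusted p = 0.0383). FGF3, a ligand of ear and tooth development, read 6.25 and 6.31 at 280 days, against 4.78 and 5.04 at 60 days, and rose by 1.38 ± 0.27 (adjusted p = 0.000282).

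In all, 9 of 17 FGF symbols fell and 2 rose before birth, 52.9% and 11.8%, against 42.4% and 18.6% of all rows. Once quantile-normalised 7 fell and 5 rose (30.6% and 37.0% of all rows), and once centred 7 fell and 8 rose (22.3% and 59.8%). FGF18, which regulates cartilage and bone growth, read 7.44 in the Piedmontese and 9.41 in the Wagyu column at 280 days, against 13.36 and 13.83 at 60 days, and fell by 5.17 ± 0.49 (adjusted p = 7.28e-08). Nearly all of it came after 195 days (−4.31, adjusted p = 1.39e-06). FGF5, known for its control of hair length, had 4.06 and 3.73 and 6.61 and 7.05 at 280 and 60 days and fell by 2.93 ± 0.24 (adjusted p = 8.91e-09), mostly before 135 days (−1.88). FGF2, the basic fibroblast growth factor and a mitogen of myoblasts, had 6.39 and 6.63 at 280 days, against 9.26 and 8.88 at 60 days, and fell by 2.56 ± 0.24 (adjusted p = 5.41e-08). The falls of FGF8 (−2.29), FGF9 (−2.13) and FGF12 (−2.56) also held on every scale. FGF12 and FGF13 are not secreted and are known as partners of sodium channels.

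FGF13 followed a course of its own. It read 9.30 and 9.80 at 280 days, against 12.39 and 10.66 at 60 days, and fell by 1.98 ± 0.36 (adjusted p = 0.000117). At 3 months it stood at 11.75 and 11.11 and had risen by 1.88 ± 0.36 from 280 days (adjusted p = 0.0011). The postnatal mean was above the fetal mean by 1.03 (adjusted p = 1.94e-05). At 60 days the Piedmontese column was higher than the Wagyu column by 1.73, the widest gap between the crosses of any member at that age.

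FGFR2 was the receptor with the largest fall. It reads ligands of the FGF7 and FGF10 group in epithelia and others in mesenchyme. It had 12.84, 11.13, 7.80 and 4.65 in the Piedmontese columns and 11.15, 9.05, 8.45 and 4.90 in the Wagyu columns at 60, 135, 195 and 280 days. The Piedmontese columns were higher at the first 2 ages and lower at the next 2, and in both crosses the values fell at every step. It fell by 7.22 ± 0.52 (adjusted p = 2.1e-09) and stayed between 4.03 and 5.27 after birth. FGFR4, which muscle precursors express in mouse and chick, has a row in the lowest 25% and read 2.58 and 3.02 at 280 days and 5.07 and 5.58 at 60 days and fell by 2.53 ± 0.29 (adjusted p = 5.85e-07). FGFR3, a brake on bone growth, went up instead, with 9.36 and 9.22 at 280 days against 8.05 and 8.15 at 60 days. It rose by 1.19 ± 0.22 (adjusted p = 0.000146) and then fell by 1.50 ± 0.22 (adjusted p = 0.000128) by 3 months, where it read 7.95 and 7.63.

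TGFB3 fell further than the other TGF-beta genes. The 3 TGF-beta ligands control matrix production, and in mice TGFB3 is needed for the palate to close. It read 5.72 in the Piedmontese and 7.62 in the Wagyu column at 280 days, against 12.90 and 13.37 at 60 days, and fell by 6.46 ± 0.32 (adjusted p = 1.6e-11), of which 4.91 came after 195 days. A second array row of TGFB3 fell by 3.61. At 3 months it had 8.08 and 8.73 and rose by 1.73 ± 0.32 (adjusted p = 0.000807). TGFB2 did the same on a smaller scale, with 7.22 and 6.98 at 280 days and 10.44 and 10.90 at 60 days. It fell by 3.57 ± 0.26 (adjusted p = 2.44e-09) and rose by 1.01 across birth (adjusted p = 0.00888). TGFB1 gave −0.16 ± 0.25 (adjusted p = 0.606) before birth and did not pass for age.

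The receptors of TGF-beta took separate courses. TGFBR3, or betaglycan, a co-receptor that presents TGFB2, stayed between 13.60 and 14.70 in all 8 fetal columns and gave 0.37 ± 0.29 (adjusted p = 0.282) from 60 to 280 days. Its 12 postnatal columns ran from 10.76 to 12.98, all below the fetal ones. It fell by 1.58 ± 0.29 (adjusted p = 0.000813) across birth and by a further 0.83 from 3 to 30 months (adjusted p = 0.0483), a later change that did not pass with every single column left out. The second row of TGFBR3 gave −1.41 across birth (adjusted p = 0.006) and −0.23 from 3 to 30 months (adjusted p = 0.652). TGFBR2, the type II receptor, had 10.63 and 11.20 at 280 days, against 12.26 and 12.42 at 60 days, and fell by 1.42 ± 0.24 (adjusted p = 6.17e-05) as deposited, but gave −0.19 with centred columns, where it did not pass. It rose by 1.08 across birth (adjusted p = 0.00364) and fell by 1.35 ± 0.24 (adjusted p = 0.00148) from 3 to 30 months, with 10.59 and 10.69 at 30 months and 12.05 and 11.94 at 3 months. TGFBR1, whose row is among the lowest 25% on the array, gave −0.46 ± 0.24 (adjusted p = 0.107) from 60 to 280 days (0.77 with centred columns, where it passed) and 0.51 ± 0.24 (adjusted p = 0.119) across birth.

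Of the BMP ligands BMP4 and BMP7 fell and BMP6 and BMP8A rose before birth. BMP4, which holds back muscle differentiation in the early embryo, read 5.76 and 6.65 at 280 days, against 8.90 and 8.33 at 60 days, and fell by 2.40 ± 0.32 (adjusted p = 4.03e-06). BMP7, a factor of kidney and brown fat development, fell by 1.51 ± 0.24 (adjusted p = 2.72e-05) as deposited but gave −0.23 and −0.28 on the other scales, which did not pass. The postnatal columns of BMP7 had a lowest, median and highest value of 5.17, 5.79 and 6.22, against 6.13, 6.75 and 7.82 before birth. BMP6, known for the control of iron uptake, had 6.13 and 6.03 at 280 days and 4.65 and 4.53 at 60 days and rose by 1.50 ± 0.24 (adjusted p = 2.78e-05). BMP8A rose by 0.93 ± 0.27 (adjusted p = 0.00702) and then fell by 1.10 ± 0.27 (adjusted p = 0.00715), with 4.95 and 4.52 at 3 months against 5.68 and 5.98 at 280 days. Among the 8 BMP genes 3 fell and 2 rose as deposited, 37.5% and 25.0%, near the 42.4% and 18.6% of all rows. Once quantile-normalised 1 fell and 3 rose, and once centred 1 fell and 4 rose.

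GDF10, a relative of BMP3, had the widest range of the GDF genes. It read 8.33, 6.51, 4.41 and 5.13 in the Piedmontese columns and 6.80, 4.82, 5.18 and 3.81 in the Wagyu columns at 60, 135, 195 and 280 days, and fell by 3.09 ± 0.47 (adjusted p = 1.68e-05). GDF1, which acts in left-right patterning of the embryo, had 9.45 and 9.60 at 280 days and 11.37 and 11.94 at 60 days and fell by 2.13 ± 0.29 (adjusted p = 4.9e-06), before it rose by 1.10 across birth (adjusted p = 0.0099). GDF9, known as an oocyte factor, rose by 1.88 ± 0.25 (adjusted p = 4.49e-06), with 3.76 and 4.51 at 280 days and 2.38 and 2.12 at 60 days. Its row lies in the lowest 25%. GDF3, which acts in the early embryo, gave −0.65 as deposited (adjusted p = 0.0486) and 0.57 with centred columns, so its direction rests on the scale. GDF2, GDF7 and GDF15 passed neither before birth nor for age as deposited. With centred columns they passed as prenatal rises of 1.18, 1.50 and 0.75 (adjusted p = 9.12e-05, 2.43e-06 and 0.0198), and GDF2 and GDF7 also did so with quantile-normalised columns, with 1.06 and 1.44.

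The BMP receptors did not move together. BMPR1A, a type I receptor, had lowest, median and highest values of 9.54, 9.91 and 10.96 after birth, against 8.69, 8.91 and 9.68 before it, and was higher after birth by 1.08 ± 0.13 (adjusted p = 5.86e-07). BMPR2, the type II receptor, was higher by 0.59 (adjusted p = 9.05e-05), and both rises held on every scale. BMPR1B, the type I receptor of cartilage and ovary, peaked at 195 days, with 7.16 and 6.86 in the Piedmontese and Wagyu columns, against 5.06 and 6.09 at 135 days. It rose by 1.44 in that step (adjusted p = 0.00227) and fell by 2.43 in the next (adjusted p = 1.34e-06). After birth it had 5.84 and 5.89 at 12 months, and the 20-month columns of 4.23 and 4.10 were lower by 1.70 (adjusted p = 0.00366).

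NOTCH1 and NOTCH2 fell late in gestation. In mouse muscle, Notch signalling keeps the stem cells of the fibre quiescent. NOTCH2 read 9.70 in the Piedmontese and 11.03 in the Wagyu column at 280 days, against 14.57 and 14.73 at 60 days, and fell by 4.28 ± 0.33 (adjusted p = 4.07e-09), while its other row fell by 0.89. NOTCH1 stayed between 11.73 and 12.48 in the 6 columns from 60 to 195 days and then read 9.06 and 9.17 at 280 days. The last step alone was −3.20 ± 0.23 (adjusted p = 4.94e-09). NOTCH4, the receptor of blood vessels, gave 0.10 ± 0.26 (adjusted p = 0.769) from 60 to 280 days but fell by 1.29 in the last step (adjusted p = 0.000581), from a maximum at 195 days.

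JAG1 was the Notch ligand with the largest range. It read 9.37, 10.98, 10.23 and 7.18 in the Piedmontese columns and 9.45, 10.43, 10.43 and 7.34 in the Wagyu columns at 60, 135, 195 and 280 days. It rose by 1.29 in the first step (adjusted p = 0.000725), fell by 3.07 in the last (adjusted p = 9.69e-09), and rose by 1.43 ± 0.23 (adjusted p = 0.000294) by 3 months. DLL3, a ligand that inhibits Notch within its own cell and acts in somites, fell by 1.29 ± 0.27 (adjusted p = 0.000502) as deposited and gave −0.30 and −0.06 on the other scales, which did not pass. JAG2 gave 0.20 ± 0.24 (adjusted p = 0.489) before birth. Its 12 postnatal columns lay between 14.96 and 15.36, all below the fetal columns of 15.69 to 16.70, and it fell by 1.15 ± 0.24 (adjusted p = 0.00203) across birth. All 4 Notch ligands and all 3 NOTCH receptors had lower postnatal than fetal means as deposited, where 51.3% of all rows were lower. Those of DLL3, DLL4 and NOTCH4 no longer passed with centred columns.

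Of the 4 ephrin-A ligands 3 fell before birth, where 42.4% of all rows fell. EFNA1 gave −0.59 ± 0.29 (adjusted p = 0.0933) and 0.29 and 0.64 with quantile-normalised and centred columns, which did not pass. EFNA5, which repels growing axons, read 7.30 and 7.80 at 280 days, against 14.18 and 13.58 at 60 days, and fell by 6.33 ± 0.34 (adjusted p = 6.09e-11). EFNA2 had 3.66 and 4.01 at 280 days and 9.43 and 9.18 at 60 days and fell by 5.47 ± 0.24 (adjusted p = 4.65e-12). EFNA4 had 7.08 and 7.51 and 10.97 and 10.87 at those ages and fell by 3.63 ± 0.25 (adjusted p = 1.07e-09), then rose by 1.49 across birth (adjusted p = 0.000407). These 3 falls held on every scale, but the second rows of EFNA5 and EFNA2 showed far less, with −0.50 (adjusted p = 0.0971) and −0.80 (adjusted p = 0.00279). Of the ephrin-B ligands EFNB2, an arterial marker, gave −0.42 ± 0.24 (adjusted p = 0.15) and rose by 0.81 with centred columns (adjusted p = 0.00246). EFNB3, a midline signal to axons, gave 0.20 ± 0.22 (adjusted p = 0.453) through the row that stands for it. Its other row, of lower mean, read 2.75 and 2.74 at 280 days in the Piedmontese and Wagyu columns, against 11.83 and 10.82 at 60 days, a fall of 8.58 (adjusted p = 3.55e-13). The rows of EFNB3 thus disagree, and no direction is given for the gene.

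The 3 EPHB receptors all fell before birth, where 42.4% of all rows fell. EPHB2, which reads ephrin-B ligands, had 5.52 and 6.45 at 280 days, against 10.79 and 10.79 at 60 days, and fell by 4.81 ± 0.31 (adjusted p = 4.67e-10). EPHB3 had 12.15 and 12.72 at 280 days and 15.22 and 15.45 at 60 days and fell by 2.90 ± 0.23 (adjusted p = 7.69e-09), and EPHB1 fell by 2.55 ± 0.33 (adjusted p = 3.14e-06). Of the EPHA receptors EPHA3, which is expressed in the limb mesenchyme of chick and mouse, fell on every scale. It read 3.79 and 3.30 at 280 days, against 6.19 and 6.34 at 60 days, and fell by 2.72 ± 0.30 (adjusted p = 4.6e-07). As deposited, EPHA1 fell by 1.82, EPHA2 fell by 1.16 and EPHA7 fell by 0.74, but none of the 3 passed on both other scales, where EPHA2 gave 0.16 and 0.07 and EPHA7 −0.06 and 0.49. EPHA8 and EPHA10 did not pass as deposited, with 0.35 and −0.09. Both passed as rises on the other scales, EPHA8 with 0.45 (quantile-normalised) and 1.58 (centred) and EPHA10 with 0.61 and 1.14.

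More members fell between 195 and 280 days than in the earlier steps, as did more of all rows. In that step 42 members fell and 9 rose, against 33.6% and 14.2% of all rows. From 60 to 135 days 19 fell and 8 rose (12.0% and 7.56% of all rows), and from 135 to 195 days 14 fell and 4 rose (9.48% and 5.47%). With centred columns the last step gave 32 falls and 45 rises among the members (20.5% and 50.9% of all rows), and with quantile-normalised columns 38 and 27 (26.3% and 31.5%).

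Some members peaked in mid-gestation. DLL4, JAG1, EFNA1, EPHA2, FGF16 and FZD9 were higher at 135 than at 60 days and lower at 280 than at 195 days, 6 of 96 members (6.25%), where 3.51% of all rows showed this course. The group was chosen after its values were seen. DLL4, a Notch ligand of growing vessels, read 9.09, 11.09, 11.45 and 9.83 in the Piedmontese and 9.63, 10.59, 11.73 and 9.87 in the Wagyu columns at the 4 fetal ages. EFNA1 and its receptor EPHA2 are both known from vessels as well. EFNA1 read 11.65, 13.39, 13.72 and 11.55 in the Piedmontese and 12.02, 12.90, 13.76 and 10.93 in the Wagyu columns, and EPHA2 8.69, 10.49, 10.78 and 7.77 against 9.54, 9.87, 10.58 and 8.14. In each case both columns at 135 and at 195 days lay above those at 60 and 280 days. The step from 60 to 135 days was 1.48 for DLL4 (adjusted p = 0.00309), 1.31 for EFNA1 (adjusted p = 0.00436), 1.06 for EPHA2 (adjusted p = 0.0164) and 1.39 for FGF16 (adjusted p = 0.00179). The course held on all 3 scales for 5 of them. FZD9 gave −0.64 from 195 to 280 days with centred columns, which did not pass.

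**Figure D4:**
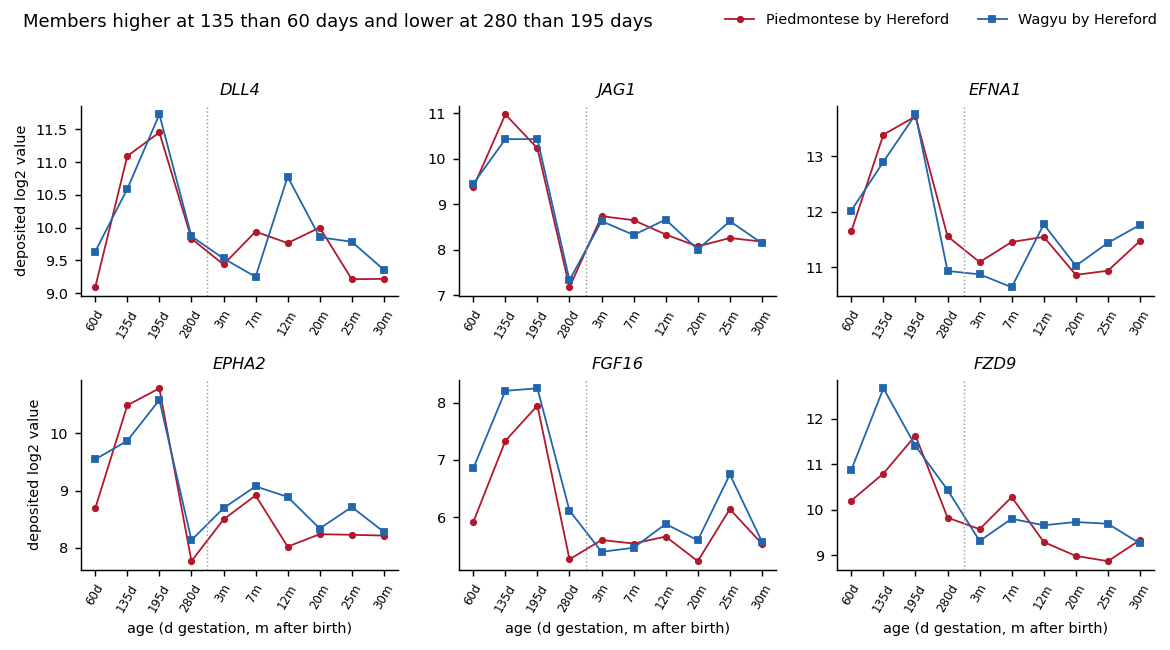
Deposited log2 value of the 6 members that were higher at 135 than at 60 days and lower at 280 than at 195 days, at 10 ages, in the Piedmontese by Hereford (red circles) and the Wagyu by Hereford cross (blue squares), 1 column per point. DLL4 reached 11.45 and 11.73 at 195 days in the Piedmontese and Wagyu columns, and FZD9 at 135 days read 10.79 and 12.66.

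Markers of other cells moved with these changes. All 7 fibroblast markers fell from 60 to 280 days, and the mean of the list was 12.0 at 280 days, against 16.0 at 60 days. The 3 measured cartilage markers fell, to a list mean of 4.48 at 280 days, against 11.6 at 60 days. The 8 measured cell division markers fell, with list means of 4.68 at 280 days and 11.1 at 60 days. Of 3 Schwann cell and nerve markers 2 fell and 1 rose, with 9.11 at 280 days and 13.9 at 60 days, and of 4 muscle precursor markers 3 fell. Of 6 surface epithelium markers 4 fell and 1 rose, and the list mean was 5.11 at 280 days, against 8.97 at 60 days. Of 7 muscle fibre markers, which mark the labelled tissue, 6 rose, to a list mean of 19.6 at 280 days, against 15.2 at 60 days. From 60 to 280 days 3 of 5 adipocyte markers rose, but their list peaked between, with means of 3.68, 9.29, 5.64 and 5.35 at 60, 135, 195 and 280 days. From 60 to 135 days 4 of the 5 rose, and from 135 to 195 days 4 fell. The list of 8 endothelial and mural markers had its highest mean, 10.7, at 195 days, and 8.74 at 60 days and 8.89 at 280 days. In it VWF was highest at 30 months and RGS5 at 3 months. At 195 days 15 members were highest (15.6%, against 8.42% of all rows). They include DLL4, EFNA1, EPHA2, FGF16 and NOTCH4, but also NOTCH1, JAG2 and WNT16, while JAG1 and FZD9 were highest at 135 days. The part of these cells in the changes of the members was not tested.

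Birth was crossed with changes in both directions. From 280 days to 3 months 12 members rose and 14 fell, against 13.8% and 14.8% of all rows. With centred columns 12 rose and 26 fell (14.5% and 28.9% of all rows), and with quantile-normalised columns 18 and 18 (18.7% and 20.6%). The median row moved by −0.14, −0.27 and −0.06 on the deposited, centred and quantile-normalised scales. This comparison uses the same 280-day columns as the last fetal step. The rises that passed with each of the 4 columns left out in turn were those of SFRP4, FGF13, TGFB3, EFNA4, JAG1, TGFBR2 and FGFR1OP2. For these, the 195-to-280-day changes were −5.14, −1.36, −4.91, −2.58, −3.07, −1.66 and −0.01, beside changes across birth of 2.13, 1.88, 1.73, 1.49, 1.43, 1.08 and 1.30. Across birth 4 of 7 fibroblast, 5 of 8 cell division, 2 of 5 adipocyte and 2 of 8 endothelial and mural markers rose and none of these fell, while of 4 muscle precursor markers 1 rose and 2 fell. In the other 4 marker lists none passed. The part of these cells was not tested. The falls that passed in the same manner were those of TGFBR3, EPHA7, FGFR3, FGF8, JAG2 and FGF21. Of the 14 members that fell 5 had a row in the lowest 25%, EPHA7, FGF8 and FGF21 among them, and of the 12 that rose 0 did. The lowest 10% of all rows moved by −0.40 across birth. EPHA7, a receptor of axon guidance, read 3.43 and 2.94 at 3 months, against 4.90 and 4.54 at 280 days, and fell by 1.54 ± 0.28 (adjusted p = 0.000794). FGF21, a metabolic hormone of liver and stressed muscle, had 3.45 and 3.50 and 4.29 and 4.63 and fell by 0.99 ± 0.23 (adjusted p = 0.00502).

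Over the whole of postnatal life 69 members had a lower and 13 a higher mean than before birth, against 51.3% and 22.2% of all rows. With centred columns 43 were lower and 35 higher (27.9% and 54.5% of all rows), and with quantile-normalised columns 54 and 21 (36.9% and 36.8%). The median row moved by −0.30 as deposited, 0.32 centred and 0.00 quantile-normalised. The 10 largest differences below the fetal mean were those of SFRP1 (−4.76), SFRP2 (−4.68), FGFR2 (−4.33), EPHB2 (−3.70), WNT2B (−3.62), EFNA5 (−3.51), FGF18 (−3.22), FZD8 (−2.88), EFNA2 (−2.63) and TGFB3 (−2.51), with adjusted p at or below 6.2e-10. EPHB2 had postnatal columns of 4.63, 5.27 and 5.83 (lowest, median and highest), against fetal columns of 5.52, 9.59 and 10.79, where only the Piedmontese 280-day column overlaps with the postnatal ones. The largest above it were those of FGF1 (3.09), FZD7 (1.90), GDF9 (1.15), FGFR1OP2 (1.13), BMPR1A (1.08) and FGF13 (1.03).

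From 3 to 30 months 17 members rose and 4 fell, against 18.4% and 3.49% of all rows. These ages lay on different slides, so age and slide cannot be told apart here. With quantile-normalised columns 10 rose and 11 fell (11.7% and 12.4% of all rows), and with centred columns 16 and 7 (16.9% and 7.21%). The median row moved by 0.31, 0.00 and 0.18 on the deposited, quantile-normalised and centred scales. Of the 17 risers 11 had a row in the lowest 25% of the array, and the lowest 10% of all rows moved by 0.76 over the same comparison. The risers with rows above the lowest 25% were FGF1, FGF9, SFRP5, WNT10B, WNT5A and FZD8. With quantile-normalised columns WNT10B and FZD8 did not pass, and the second row of FZD8 gave 0.07 as deposited (adjusted p = 0.886). FGF9, a ligand of lung and skeletal growth, read 5.77 and 6.09 at 30 months, against 4.40 and 4.15 at 3 months, and rose by 1.66 ± 0.27 (adjusted p = 0.000861). FGF8, an embryonic limb signal, had 4.26 and 4.30 at 30 months and 2.66 and 2.56 at 3 months and rose by 1.67 ± 0.23 (adjusted p = 0.000198), in a row of the lowest 25%. The changes of FGF1, FGF8, FGF9 and TGFBR2 passed with each of the 4 columns left out in turn, and those of the other 17 members did not. Over the same months 4 of 5 adipocyte markers rose, with a list mean of 10.8 at 30 months, against 6.77 at 3 months. Of 8 cell division markers 6 fell, and of 7 fibroblast markers 2 fell (COL1A1 and COL3A1). Of 3 Schwann cell and nerve markers 2 rose and 1 fell, and the other 5 lists had at most 1 marker that rose and 1 that fell. The part of these cells was not tested. Without the Wagyu column at 3 months 3 members rose and 1 fell, and without the one at 30 months likewise 3 and 1. Without the Piedmontese column at 30 months 7 rose and 2 fell, and without the one at 3 months 15 and 2.

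Single postnatal steps gave few calls. From 3 to 7 months 1 member passed (1.27% of all rows), from 7 to 12 months 1 (1.66%), from 12 to 20 months 2 (2.29%), from 20 to 25 months 9 (8.97%) and from 25 to 30 months 3 (2.81%). FGF8 rose by 0.95 in the first of these steps and fell by 0.96 in the next. SFRP1 fell by 1.49 from 12 to 20 months (adjusted p = 0.0436). All 9 members that passed from 20 to 25 months rose, from 0.86 for EFNA2 to 1.58 for FGF8, and 6 of them were in the lowest 25%. WNT11 and FGF9 rose by 1.08 and 1.11 from 25 to 30 months (adjusted p = 0.0266 and 0.0391).

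Over 10 ages 0 of 96 members passed for Piedmontese minus Wagyu, against 0.279% of all rows, and 9 had an unadjusted p under 0.05 (9.38%, against 8.27% of all rows), of which 8 were lower in the Piedmontese cross. On simulated data of the same shape limma recovered 93.5% of rows set to differ by 1 between the crosses and 42.5% of those set to differ by 0.5. The simulation had independent noise, no age courses and 200 changed rows, while 60 rows of the data passed. These shares therefore do not give the power reached here. The smallest adjusted p was that of TGFB3, which was lower in the Piedmontese columns at 10 of 10 ages, by 0.13 to 1.90, with a mean of −0.60 ± 0.14 (adjusted p = 0.102). Its second row was lower at 8 of 10 ages, with a mean of −0.27. SFRP2 was lower in the Piedmontese columns at 9 of 10 ages, with −0.64 ± 0.20 (adjusted p = 0.279). SFRP4 gave −0.52 ± 0.20 (adjusted p = 0.433) and FGF16 −0.39 ± 0.12 (adjusted p = 0.297).

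SFRP2 was lower in the Piedmontese cross at every postnatal age. It read 6.52, 7.21, 7.02, 6.56, 6.68 and 6.96 in the Piedmontese and 7.19, 7.57, 7.78, 7.22, 7.39 and 7.75 in the Wagyu columns at 3, 7, 12, 20, 25 and 30 months, which is lower by 0.36 to 0.79. In a fit of the 12 postnatal columns alone SFRP2 passed with −0.66 (adjusted p = 0.00406) and TGFB3 with −0.45 (adjusted p = 0.0466), where 1.86% of all rows passed. Of 96 members only these passed, a share near that of the array. TGFB3 read 8.08, 8.76, 8.14, 8.24, 8.06 and 8.48 in the Piedmontese and 8.73, 9.13, 8.69, 8.41, 8.64 and 8.83 in the Wagyu columns. In its second row Piedmontese minus Wagyu was −0.36, 0.18, −0.68, 0.02, −0.04 and −0.02 at these ages. In the 8 fetal columns alone no member passed, with adjusted p = 1 for SFRP2 and TGFB3, and over all settings tried the adjusted p ran from 0.00406 to 1 for SFRP2 and from 0.0466 to 1 for TGFB3. The 7 fibroblast markers showed mean Piedmontese minus Wagyu differences between −0.59 and 0.22 at the postnatal ages, and their part was not tested.

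The widest gap between the crosses at any age was that of SFRP2 at 280 days, where Piedmontese minus Wagyu was −2.48. At that age it was −1.97 for FGF18, −1.90 for TGFB3, −1.42 for WNT2B, −1.33 for NOTCH2 and −1.31 for SFRP4. All rows had a median of −0.31 there, and 75 of 96 members were lower in the Piedmontese column. All 5 adipocyte and all 7 fibroblast markers were lower there as well, by 1.32 and 1.07 on average, as were all 3 Schwann cell and nerve markers (0.84) and all 4 muscle precursor markers (0.81). The means of the other 5 lists lay between −0.44 and 0.27. There is 1 column per cross at an age, and dyes were unbalanced before birth, so these single differences have no test. At 60 and 135 days FGFR2 was higher in the Piedmontese columns by 1.70 and 2.08 and GDF10 by 1.53 and 1.69, while the muscle fibre markers were lower there by 1.41 and 2.11 on average. The part of these marker lists was not tested.

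Whether the cross difference itself changed with stage was tested on its 10 values. No member passed (0.0186% of all rows did), and 7 had an unadjusted p under 0.05 (7.29%, against 5.46% of all rows). The smallest adjusted p, 0.285, was that of SFRP1, where Piedmontese minus Wagyu averaged 0.47 over the 6 postnatal and −0.51 over the 4 fetal ages. For FGF18 these means were −0.03 and −1.06, and for GDF10 0.04 and 0.94. With the 195-day columns left out GDF10 passed, with a fetal minus postnatal difference of 1.48 (adjusted p = 0.0157).

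**Figure D5:**
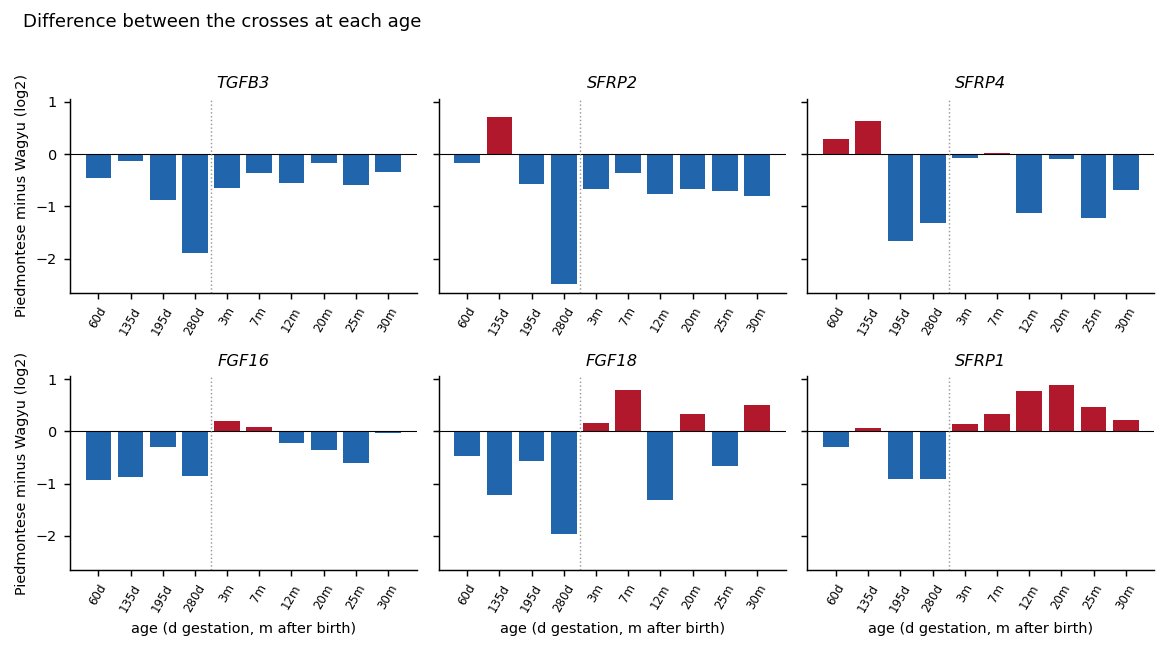
Piedmontese minus Wagyu difference of the deposited log2 values at 10 ages for 6 members, with bars above 0 (red) where the Piedmontese column was higher and below 0 (blue) where it was lower. Each bar is 1 difference between 2 columns, so it has no error bar, and the dotted line marks birth. TGFB3 was lower in the Piedmontese columns at 10 of 10 ages, and SFRP2 reached −2.48 at 280 days.

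Other genes of the pathways were read from lists chosen with earlier results of these data known. Of 27 measured WNT regulators and targets (37 listed) 19 fell and 4 rose from 60 to 280 days, with a median change of −1.815. ROR2, a receptor for WNT5A, fell by 6.73 and the secreted protein DKK3 by 6.52. DVL1, which relays the frizzled signal, rose by 2.83, while its relative DVL2 fell by 3.60. AXIN2, a target of beta-catenin, rose by 1.22, while its partner CTNNB1, beta-catenin itself, fell by 2.20. These directions were the same on every scale. As deposited, AXIN1 and RSPO2 of this list also rose, by 0.90 and 1.45, while LGR5, TCF7 and NKD1 fell by 3.12, 1.83 and 0.91. FRZB, which encodes another frizzled-related WNT antagonist, rose by 4.09 across birth.

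Of 12 FGF regulators and targets 7 fell and 1 rose, with a median of −1.61. FLRT3, a membrane partner of FGF receptors, fell by 6.86 and the feedback inhibitors SPRY1, SPRY2 and SPRED1 by 2.62, 2.19 and 3.80. SPRY4, of the same family, gave 0.07 (adjusted p = 0.82) and rose by 1.30 with centred columns (adjusted p = 2.78e-05), and the target ETV4 gave −0.46 (adjusted p = 0.157) and 0.77 when centred. Of 18 BMP regulators and targets 14 fell and 1 rose (median −1.40). The antagonists SOSTDC1 and NOG fell by 5.71 and 3.46, and the BMP target genes ID1 and ID3 by 3.02 and 3.19. ID1 and ID3 then rose by 1.97 and 1.49 across birth. Of 12 TGF-beta regulators and targets 7 fell and 1 rose (median −1.55), with TGFBI, a matrix protein induced by TGF-beta, lower by 5.41 at 280 days and higher by 2.69 across birth.

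Of 18 Notch regulators and targets 12 fell and 1 rose (median −2.20). RBPJ, the transcription factor on which all Notch receptors act, fell by 2.85, and the targets HES1 and HEYL by 2.19 and 2.49. The targets HEY2 and NRARP gave 0.01 (adjusted p = 0.975) and −0.06 (adjusted p = 0.841), and rose by 1.24 and 1.17 with centred columns. HEYL rose by 2.36 across birth. DLK2, a non-canonical ligand, fell by 3.24 before birth and by 4.02 across it. MFNG, which adds sugars to Notch, rose by 1.80. Of 6 partners of ephrin signalling 5 fell and 0 rose (median −2.06), PTPN13 by 3.33 and VAV3 by 2.69. With centred columns the falls and rises were 13 and 8 in the WNT list, 6 and 5 in the FGF list, 8 and 5 in the BMP list, 5 and 5 in the TGF-beta list, 10 and 6 in the Notch list and 3 and 2 in the ephrin list. Across all rows 42.4% fell and 18.6% rose as deposited.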

How the data were processed

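Total RNA of LD muscle was measured on two-colour Agilent arrays, read with Agilent Feature Extraction 8.5.1.1 per the submitters' processing notes. The deposited values are on a log2 scale, judged from their range of −0.64 to 21.75; for the log base, the normalisation and how animals were combined, the record is: not given in the sources used here. A difference is therefore in log2 units of the table and is not written as a fold. Before birth the dyes were unbalanced: of the 3 Piedmontese samples 2 carried Cy3 at 60 and at 280 days, and 1 did at 135 and at 195 days.

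Symbols came from the platform annotation, which gives 12276 rows 1 symbol and 9199 none. Among the members 95 symbols were found in a current RefSeq gene table and 0 had changed. The limma fit (lmFit and eBayes, limma 3.58.1 in R 4.3.3) had age as a factor and cross, with 9 residual degrees of freedom, and Benjamini-Hochberg adjustment over all rows at 0.05. The change of the cross difference with stage was fitted to the 10 differences. On simulated data with 200 of 21475 rows changed, limma recovered 93% of rows set to change by 2 from 60 to 280 days. It recovered 22% of those set to change by 1. In that comparison 9112 rows of the data fell and 3988 rose, which loosens the adjustment. The recovered shares therefore do not give the power reached here. Genes were named by rank: the 10 largest changes that passed in each direction of a comparison, the widest range of each family, and genes standing apart for a reason given with them. Members and lists were chosen with earlier results of these data known. Alternatives were other scalings, priors, filters and column sets, and single columns left out. Sequences were not used here.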

Additional observations from a re-analysis of the deposited data

How the results depend on the processing

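Members higher in the prenatal comparison numbered 27 with quantile-normalised and 46 with centred columns, against 8 as deposited, and members lower across birth numbered 26 with centred columns. Postnatal rises numbered 10 with quantile-normalised columns, 6 with the 25% of rows of lowest mean left out and 28 in the 12 postnatal columns alone, and postnatal falls 11, 2 and 7 under the same settings and 7 with centred columns. In the postnatal against fetal comparison 21 (quantile-normalised) and 35 (centred) members were higher and 43 (centred) lower. In the fetal steps 17 members passed from 60 to 135 days in the 8 fetal columns alone, 32 (centred) and 7 (fetal columns alone) from 135 to 195 days, and 77 (centred) from 195 to 280 days. From 3 to 7 months 3 (quantile-normalised), 3 (centred), 0 (low rows left out), 0 (trended robust prior) and 7 (postnatal columns alone) passed, and from 7 to 12 months 6, 4 and 0 under the first 3 of these and 5 in the postnatal columns alone. From 12 to 20 months 1 (quantile-normalised) and 10 (postnatal columns alone) passed, from 20 to 25 months 3, 5, 0 and 20 (quantile-normalised, centred, low rows left out, postnatal columns alone), and from 25 to 30 months 5, 5 and 8 (quantile-normalised, centred, postnatal columns alone). For the crosses 2 passed in the postnatal columns alone.

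These changes turned direction. In the prenatal comparison quantile-normalised columns gave BMP2K 0.0595, EPHA2 0.16, FGF16 0.36 and WNT11 0.66. Centred columns gave BMP2K 0.27, BMPR1B 0.0596, EPHA2 0.0656, EPHA7 0.49, FGF10 0.47, FGF16 0.53, FGFR1OP2 0.68, GDF3 0.57, WNT11 0.55 and WNT5A 0.25. In the postnatal against fetal comparison quantile-normalised columns gave BMP10 0.0193, GDF7 0.31, TGFBRAP1 0.12 and WNT5A 0.0203. Centred columns gave BMP10 0.31, BMP3 0.16, BMP8A 0.32, EFNB2 0.22, EPHA10 0.18, FGF10 0.0793, FGF12 0.0528, FGF19 0.30, FGF21 0.23, FZD5 0.0741, GDF7 0.39, TGFBRAP1 0.21, WNT3 0.0141 and WNT5A 0.17. Apart from the scale, the cause of these differences was not tested.

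With single columns left out, prenatal rises ranged from 6 to 8 and falls from 43 to 48, birth rises from 7 to 16 and falls from 6 to 16, postnatal rises from 3 to 15 and falls from 1 to 2, and members higher and lower after birth from 12 to 14 and from 64 to 70. Birth rises numbered 7 without the Piedmontese column at 3 months, and birth falls 9 without the Wagyu column at 280 days and 6 without the one at 3 months. With single ages left out, members higher after birth ranged from 12 to 14 and members lower from 64 to 70. Cross differences then ranged from 0 to 0 and their changes with stage from 0 to 1. Where a single column was left out, the arm left with 1 column is assumed to vary like the others. Leaving out low members, a choice made after seeing the data, gave 7 prenatal rises and 42 falls. Age as a factor paired the crosses, and without it 0 members passed for the cross. No paired analysis was possible by replicate number because each cross and age has 1 column. Signal over background is not given, so low rows carry no stated limit.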
